A study of Mus musculus with 27 samples.

Results

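The unfolded protein response and the secretory chaperones are described here by 32 genes, chosen by symbol from the 56941 genes of the deposited tables. They comprise 14 chaperones and folding enzymes of the endoplasmic reticulum (ER), 7 genes of ER-associated degradation and secretory transport, 6 sensors and transcription factors, 3 targets of the factors ATF4 and CHOP, and the mucus-cell factors Ern2 and Creb3l1. All 32 were among the 24629 genes that passed the filter on low counts. The symbol Ddit3 stands on 2 rows of the tables, 1 of which holds 0 counts in every library, and the row with counts was used.

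RNA was taken from whole lungs of male C57Bl/6 mice (genotype C57Bl/6J) of 7 to 8 weeks and sequenced after polyA selection. Mice had 5 oropharyngeal instillations, at intervals of 2 to 3 days, of 10 µg of house dust mite extract (HDM) in 50 µl or of phosphate-buffered saline (PBS). After 24 h came a single instillation of 100 µl of saline (SAL) or of combustion products (CP) at 2 mg per ml of saline, and lungs were harvested after a further 24 h. The 27 libraries fall into PBS_SAL (7 libraries; PBS, then saline), PBS_CP (7; PBS, then combustion products), HDM_SAL (6; HDM, then saline) and HDM_CP (7; HDM, then combustion products). No group was left without instillations. The labels number the libraries and do not state that each number is a separate mouse, so p-values measure the spread between these libraries, which may be technical.

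The ER folds the proteins that a cell secretes or places in its membranes, and the unfolded protein response adjusts its folding capacity. The sensor IRE1 splices the mRNA of XBP1, which with ATF6 raises transcription of chaperones and of the degradation machinery, while the sensor PERK slows translation and favours ATF4, which drives amino acid genes and CHOP. Airway goblet cells make large amounts of mucin and carry their own IRE1 paralog, IRE1β (Ern2), and plasma cells, which secrete antibody, depend on XBP1. Splicing of XBP1 and cleavage of ATF6 cannot be read from counts per gene, so the levels below are those of total mRNA.

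Totals of estimated counts ran from 56.3 M in the shallowest library to 84.5 M in the deepest, where M stands for mega. Defining lung markers were present: the summed level of 8 alveolar type 2 markers ranged from 31361 to 40886 transcripts per M (TPM) over the groups. The 5 cardiac muscle markers summed to between 68.1 and 261 TPM. Libraries numbered 96 to 105, the last of 3 runs of numbers, stood apart in the chaperones. The labels do not say what a run of numbers is. Within HDM_CP all 14 chaperones had a higher mean in the last run than in the other libraries (median difference of 0.25 in log2 counts per M), and within HDM_SAL 13 of 14 did (0.28). Within PBS_SAL 10 of 14 did (0.10) and within PBS_CP 9 of 14 (0.03). Results that rest on these libraries are therefore given with and without them, and the part of the runs in them was not tested.

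Across all 27 libraries the per-length levels spanned a wide range. Hsp90b1, the ER form of HSP90, was highest at a mean of 537 TPM, followed by calreticulin (Calr, 491 TPM), the disulfide isomerase Pdia3 (380 TPM) and BiP (Hspa5, 347 TPM). Xbp1 stood at 207 TPM and Atf4 at 183 TPM. The sensors were lower, with Atf6 at 29.3 TPM, Ern1 (IRE1α) at 21.1 TPM and Eif2ak3 (PERK) at 20.8 TPM. The lowest members were Trib3 at 5.0 TPM, Chac1 at 4.80 TPM, Derl3 at 3.94 TPM and Ern2 at 0.587 TPM. Levels of single genes from here on are counts per M (CPM), which compare a gene between libraries and not genes with each other. Summed levels of markers stay in TPM.

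HDM exposure was the factor with called changes among these genes, where called means an adjusted p under 0.05 (edgeR's quasi-likelihood F test, Benjamini-Hochberg adjustment over all genes). In HDM_SAL against PBS_SAL, 8 of 32 members were called, 6 higher and 2 lower, beside 5.44% of all genes tested (3.19% higher, 2.25% lower). In HDM_CP against PBS_CP, 15 of 32 were called, 14 higher and 1 lower, beside 7.87% of all genes (5.6% higher, 2.27% lower). The median log2 fold change of the members was 0.10 and 0.15 in these comparisons, against 0.01 and 0.00 over all genes. The same 6 genes were called in both: Pdia3, Pdia4, Pdia6, Sdf2l1 and Creb3l1, which rose, and Herpud1, which fell. Ern2 and Chac1 were called only in the saline pair, 9 members only in the combustion-product pair, and 15 in neither; whether a gene differed between the pairs is the interaction given further on. In whole lung, a change in the number of cells that express a gene and a change in RNA per cell cannot be told apart.

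**Figure D1:**
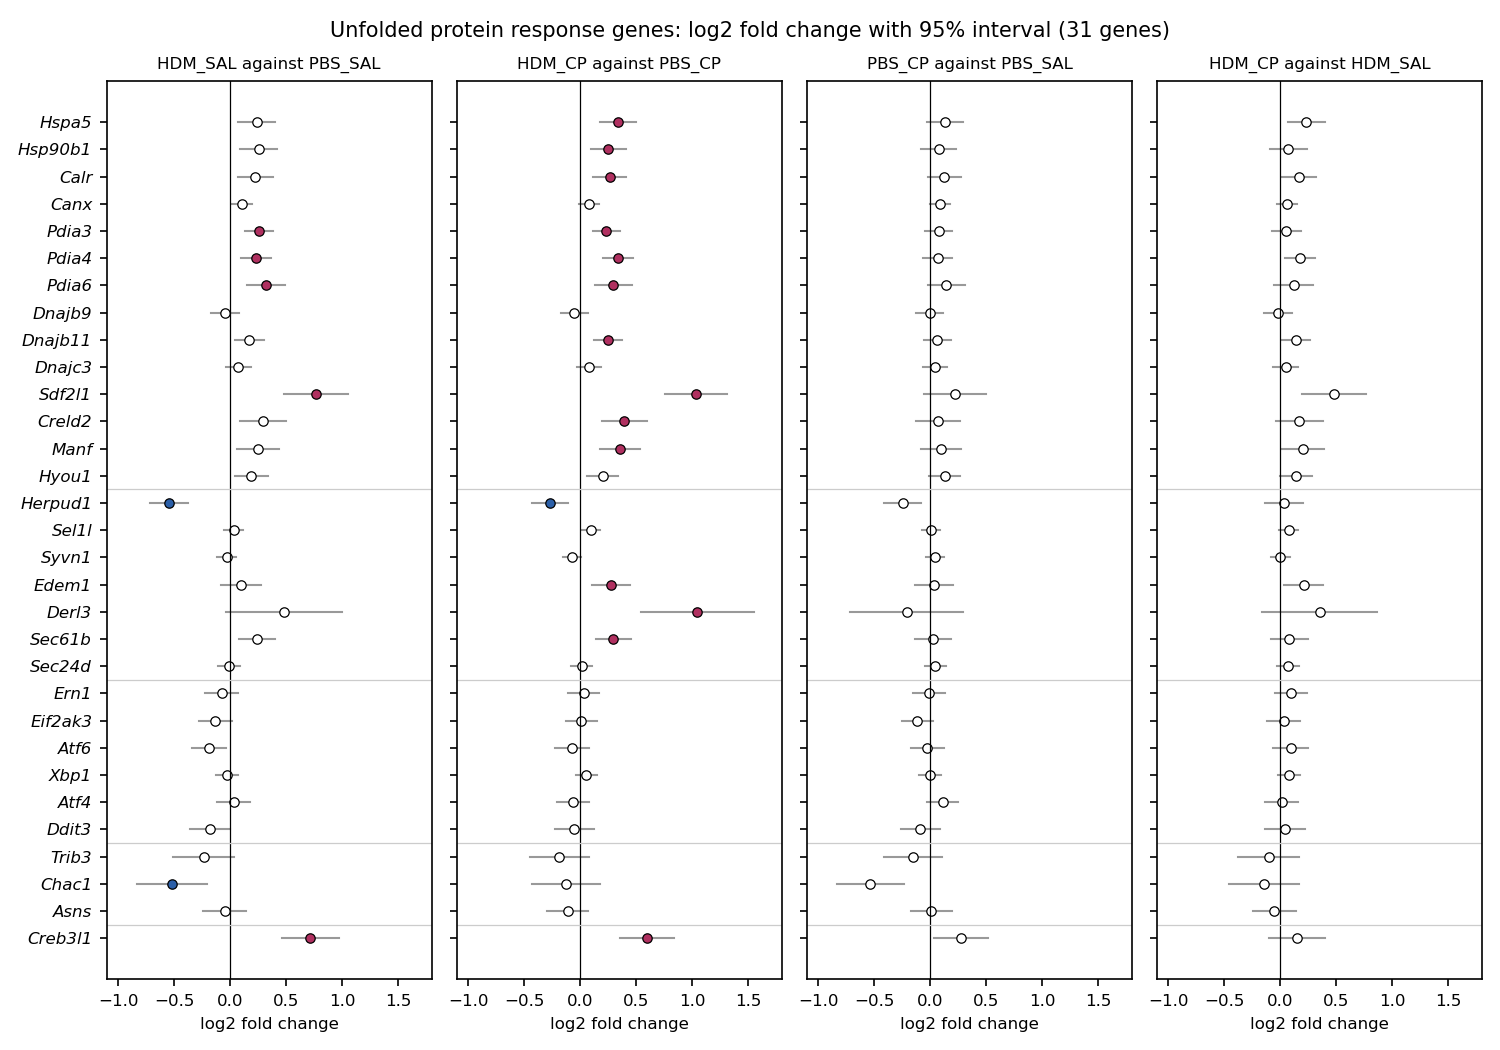
Log2 fold change (x axis) of 31 members (y axis, Ern2 left out for its scale) in 4 comparisons, with 95% intervals as lines; filled points were called and open points were not, and grey lines separate the chaperones, degradation and transport genes, sensors and factors, ATF4 and CHOP targets, and Creb3l1. Filled points lie in the HDM comparisons, 7 in the first panel and 15 in the second, and no point is filled in the combustion-product comparisons.

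The chaperones are the classic targets of ATF6 and XBP1, and the ER stress element (ERSE) through which these act is shown here as a description of the members' promoters. RefSeq promoters of the GRCm38.p6 build were at hand for 27 of the 32 genes. The 250 bases before each start were searched on both strands for CCAAT, 9 bases of any kind and CCACG, with no mismatch allowed. It was found in 9 of the 27 (Calr, Canx, Creld2, Derl3, Dnajc3, Hsp90b1, Hspa5, Pdia6 and Syvn1), among them 7 of the 12 chaperones searched. Of all 32851 promoters of the table, 37 held it (0.113%). The CCAAT part alone, which overlaps this element, occurred in 22 of the 27 and in 33.8% of all promoters. Capitals mark the 2 parts of the element, and sequences run 5′ to 3′ on the gene's strand with 5 bases on either side, so that the element reads in reverse complement in Calr, Creld2 and Derl3.
Hspa5: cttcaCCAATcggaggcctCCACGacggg
Pdia6: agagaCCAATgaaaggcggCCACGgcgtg
Calr: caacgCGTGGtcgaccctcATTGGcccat
Creld2: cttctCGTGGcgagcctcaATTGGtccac
Derl3: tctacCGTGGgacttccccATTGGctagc
Canx: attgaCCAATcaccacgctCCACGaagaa
Dnajc3: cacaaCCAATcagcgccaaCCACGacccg
Syvn1: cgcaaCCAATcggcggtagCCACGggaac
In GRCm38.p6 these lie at chr2:34772020-34772048 (+, Hspa5), chr12:17266486-17266514 (+, Pdia6), chr8:84847070-84847098 (−, Calr), chr15:88819515-88819543 (+, Creld2), chr10:75893237-75893265 (+, Derl3), chr11:50325795-50325823 (−, Canx), chr14:118937822-118937850 (+, Dnajc3) and chr19:6046527-6046555 (+, Syvn1). The Hspa5 element spans 65 to 47 bases before the start. Hsp90b1 held 2 such elements, on opposite strands. Of the 9 genes with the element, 1 was called higher in HDM_SAL against PBS_SAL and 6 in HDM_CP against PBS_CP. Of the 18 without it, 3 and 6 were called higher and 2 and 1 lower. Of the 5 members with no promoter at hand, 2 were called higher and 0 lower in each comparison. Canx, Dnajc3 and Syvn1 carry the element and were called in neither comparison. A match is a description of letters, not of a bound site.

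Of the 14 chaperones, 4 rose in HDM_SAL against PBS_SAL and none fell. Sdf2l1, a small ER protein that works with DNAJB11 and BiP, had the largest fold change of the chaperones. It ranged from 9.38 to 16.6 CPM in PBS_SAL (median 12.8) and from 17.0 to 30.3 CPM in HDM_SAL (median 20.0). Every HDM_SAL library lay above every PBS_SAL library, and the log2 fold change was 0.77 ± 0.14 (SE, adjusted p = 0.0016). Pdia3, the isomerase that works with calnexin and calreticulin on glycoproteins, went from a median of 436 CPM (417 to 493) to 527 CPM (445 to 612). Pdia4 went from 116 CPM (114 to 126) to 138 CPM (120 to 164), and Pdia6, an isomerase bound to BiP, from 200 CPM (189 to 232) to 258 CPM (199 to 293). Groups overlapped for all 3 isomerases, with log2 fold changes of 0.26 ± 0.06, 0.23 ± 0.07 and 0.32 ± 0.08 (adjusted p = 0.014, 0.039 and 0.023). Hspa5, the main chaperone and regulator of the sensors, did not pass the test at 0.24 ± 0.08 (adjusted p = 0.087; 408 CPM, 375 to 432, against 490 CPM, 391 to 565). Counting both called and uncalled genes, 13 of the 14 fold changes were positive, the exception being Dnajb9 (−0.04 ± 0.06), a co-chaperone that restrains IRE1. Their median was 0.23, and 52.7% of all genes had a positive fold change.

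The chaperone values followed single libraries. In HDM_SAL, library 100 was the highest for 10 of 14 chaperones and library 72 the lowest for 8. In PBS_SAL, library 104 was the highest for 8 and library 61 the lowest for 9. Without HDM_SAL 72, 13 members were called, with Hspa5, Hsp90b1, Calr, Dnajb11, Creld2 and Manf added and Chac1 lost. Without HDM_SAL 99 only 4 remained: Sdf2l1, Herpud1, Ern2 and Creb3l1. The same 4 remained without all 9 libraries of the last run, where Pdia3 had 0.17, Pdia4 0.14 and Pdia6 0.26. Without HDM_SAL 50, PBS_SAL 61, PBS_SAL 64 or PBS_SAL 80, 5 were called each time, since Pdia4, Pdia6 and Chac1 were lost. The call of Pdia4 was also lost without HDM_SAL 52, HDM_SAL 100, PBS_SAL 79 or PBS_SAL 104, and that of Pdia6 without HDM_SAL 100. Limma on log2(TPM + 1) called neither Pdia4 (0.17) nor Pdia6 (0.25). Within the runs the median difference over the 14 chaperones was 0.22 in the first (13 of 14 positive), 0.01 in the second (9 of 14, with 1 HDM_SAL library) and 0.34 in the last (13 of 14). Sdf2l1 was higher in HDM_SAL in each run, by 0.63, 0.60 and 0.86.

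In HDM_CP against PBS_CP, 10 of the 14 chaperones rose and none fell. Sdf2l1 ranged from 14.2 to 15.9 CPM in PBS_CP (median 14.7) and from 20.6 to 38.7 CPM in HDM_CP (median 31.0). These groups did not overlap, and the log2 fold change was 1.03 ± 0.13 (adjusted p = 3.6e-05). Hspa5 went from 435 CPM (405 to 501) to 549 CPM (474 to 678), with overlap, at 0.34 ± 0.08 (adjusted p = 0.0071). Calr, a calcium-binding lectin chaperone, was at 482 CPM (460 to 498) and 559 CPM (503 to 673), and Pdia3 at 470 CPM (462 to 489) and 559 CPM (490 to 610). For both, every HDM_CP library lay above every PBS_CP library, at 0.26 ± 0.07 and 0.23 ± 0.06 (adjusted p = 0.020 and 0.013).

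Among the other called chaperones, Pdia4 was at 122 CPM (120 to 136) and 161 CPM (135 to 181), a log2 fold change of 0.34 ± 0.06 (adjusted p = 0.0013). Pdia6 was at 224 CPM (209 to 241) and 271 CPM (220 to 325). Creld2, an ER stress-inducible protein, was at 30.5 CPM (25.6 to 36.1) and 39.0 CPM (31.4 to 48.7), and Manf, a secreted ER stress protein that binds BiP, at 64.1 CPM (56.6 to 80.5) and 85.0 CPM (68.4 to 100.3). These 4 overlapped between the groups, as did Dnajb11, a BiP co-chaperone (76.1 CPM, 67.7 to 80.6, and 90.7 CPM, 78.9 to 99.8), and Hsp90b1 (682 CPM, 631 to 704, and 799 CPM, 661 to 935). Log2 fold changes were 0.29 ± 0.08 for Pdia6, 0.40 ± 0.10 for Creld2, 0.35 ± 0.09 for Manf, 0.25 ± 0.06 for Dnajb11 and 0.25 ± 0.08 for Hsp90b1. Their adjusted p-values ran from 0.0084 for Dnajb11 to 0.042 for Hsp90b1. Hyou1, Canx, Dnajc3 and Dnajb9 did not pass, at 0.20, 0.08, 0.08 and −0.05.

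Calls in this comparison depended on the last run too. HDM_CP 96 was the highest library of its group for 7 chaperones and HDM_CP 97 for 5, both in the last run, and HDM_CP 66 was the lowest for 9. Without the last run, 3 members were called: Pdia4 at 0.24, Sdf2l1 at 0.85 and Creb3l1 at 0.59, with fewer libraries in the fit. There Hspa5 had 0.15, Hsp90b1 0.09 and Manf 0.28. Within the runs, the median difference over the chaperones was 0.23 (12 of 14 positive), 0.04 (9 of 14) and 0.40 (14 of 14). Sdf2l1 was higher in HDM_CP in each, by 0.88, 0.80 and 1.23. The call of Hsp90b1 was lost on leaving out HDM_CP 49, 96, 97 or 98 or any single PBS_CP library, with adjusted p from 0.053 to 0.11. That of Pdia6 was lost without HDM_CP 96 or 97, and that of Calr without HDM_CP 97. Limma on log2(TPM + 1) called neither Hsp90b1 (0.22) nor Calr (0.24).

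**Figure D2:**
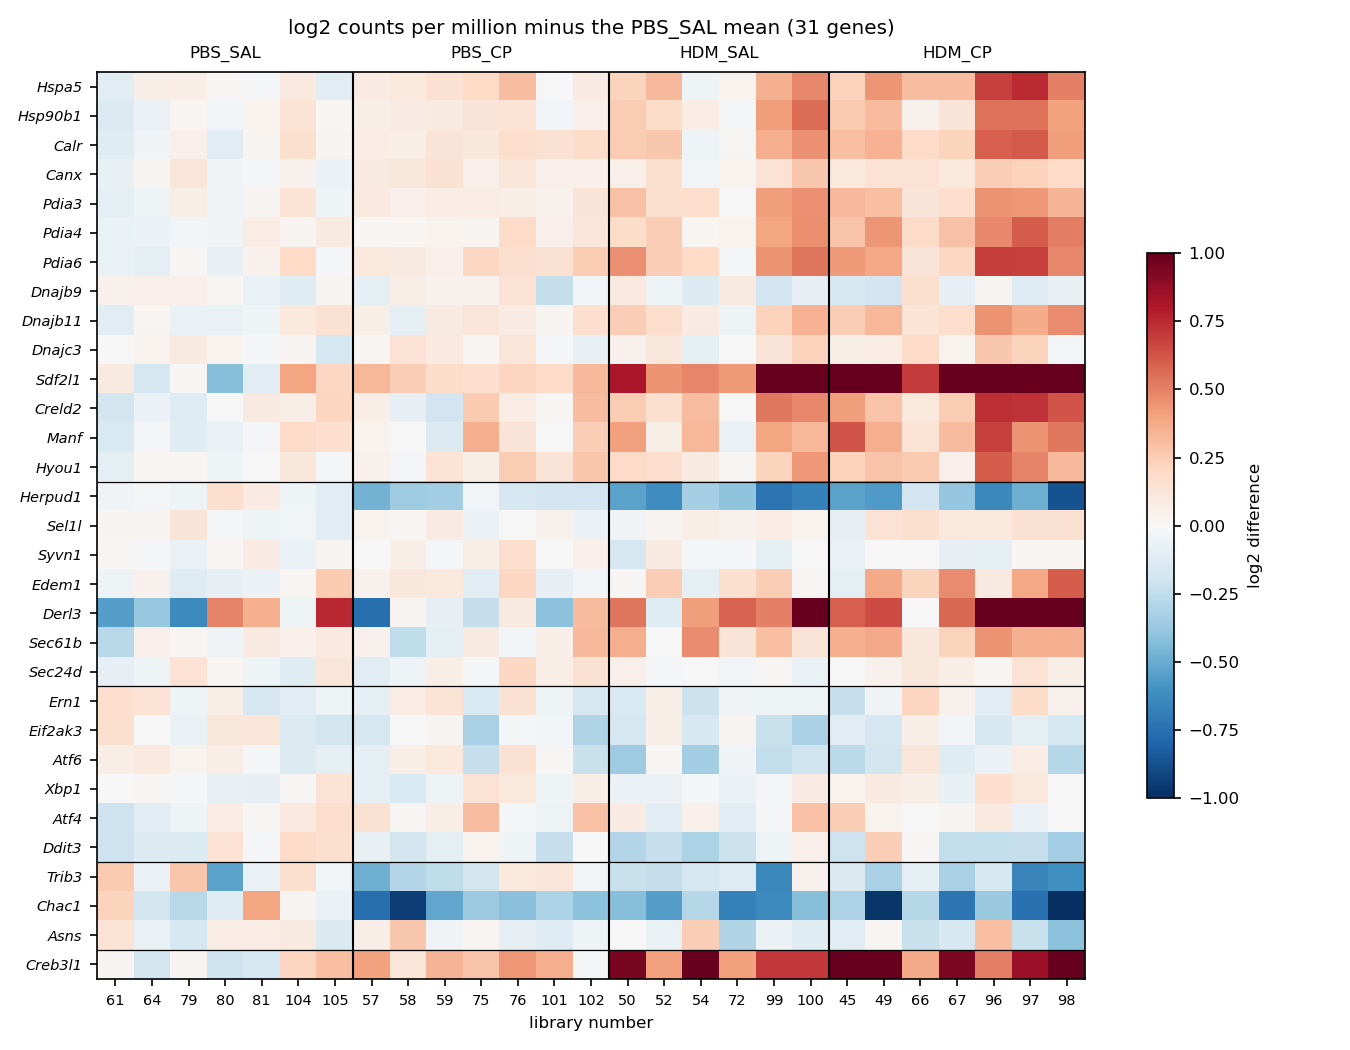
Log2 CPM of 31 members (rows, Ern2 left out) minus the PBS_SAL mean in each of 27 libraries (columns, by group and number), with colours ending at 1, past which some cells of Sdf2l1, Derl3, Creb3l1 and Chac1 lie. The chaperone rows at the top are reddest in HDM_SAL 99 and 100 and in HDM_CP 96, 97 and 98, Creb3l1 is red in HDM libraries of every run, and Herpud1 and Chac1 are mostly blue outside PBS_SAL.

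Of the 7 degradation and transport genes, Herpud1 alone was called in HDM_SAL against PBS_SAL, and it fell. HERPUD1 is an ER membrane protein of the degradation complex and a target of both ATF6 and ATF4. It ranged from 154 to 185 CPM in PBS_SAL (median 161) and from 99.5 to 131 CPM in HDM_SAL (median 111). Every HDM_SAL library lay below every PBS_SAL library, and the log2 fold change was −0.55 ± 0.08 (adjusted p = 0.00038). This stood in the opposite direction to the 6 members that rose. All 26 alternatives, single libraries left out among them, kept the call, and the 3 runs gave −0.47, −0.47 and −0.63.

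Herpud1 is also the member whose promoter held both kinds of element, which is why its sequences are shown. The second form of the ER stress element (ATTGG, 1 base, CCACG) occurred in 10 of 32851 promoters (0.0304%) and, of the 27 members, in Herpud1 only. The C/EBP-ATF response element bound by ATF4 (TGATGNAA, searched on both strands) occurred in 3.45% of all promoters and in 3 of the 27, Herpud1, Chac1 and Asns. Capitals mark the elements, the lines are on the gene's strand, and the second element of Herpud1 and that of Chac1 read in reverse complement.
Herpud1: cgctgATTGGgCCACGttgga
Herpud1: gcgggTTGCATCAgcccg
Chac1: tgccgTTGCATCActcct
Asns: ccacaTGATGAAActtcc
In GRCm38.p6 they lie at chr8:94386372-94386392 (+), chr8:94386312-94386329 (+), chr2:119351044-119351061 (+) and chr6:7693220-7693237 (−). The genes with the C/EBP-ATF element did not move alike. Herpud1 and Chac1 fell in HDM_SAL against PBS_SAL, and Asns had −0.05 ± 0.09.

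In HDM_CP against PBS_CP, Herpud1 fell again by 0.27 on the log2 scale (SE 0.08, adjusted p = 0.035), from 145 CPM (119 to 162) to 114 CPM (90.7 to 145), with overlap. PBS_CP lay below PBS_SAL for this gene, at −0.25 ± 0.08 (adjusted p = 0.59), and HDM_CP against HDM_SAL gave 0.03 ± 0.08. The fall in the combustion-product pair was not called without the last run (−0.15), nor without any of HDM_CP 49, 96 or 98 or PBS_CP 75, 76, 101 or 102 (adjusted p from 0.061 to 0.10).

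Derl3, Sec61b and Edem1 rose in HDM_CP against PBS_CP. Derl3, a degradation component typical of secretory cells, was at 1.47 CPM (0.914 to 1.95) in PBS_CP and 2.46 CPM (1.55 to 4.66) in HDM_CP, a log2 fold change of 1.05 ± 0.25 (adjusted p = 0.0074), with HDM_CP 98 highest. The same gene had 0.49 ± 0.25 in HDM_SAL against PBS_SAL (1.50 CPM, 0.992 to 2.66, and 2.25 CPM, 1.43 to 3.57; adjusted p = 0.29). Sec61b, a subunit of the translocon, was at 36.5 CPM (29.8 to 44.4) and 45.5 CPM (38.5 to 48.4), at 0.30 ± 0.08 (adjusted p = 0.015). Edem1, which directs misfolded glycoproteins to degradation, was at 80.3 CPM (72.5 to 90.1) and 101 CPM (73.1 to 119), at 0.27 ± 0.08 (adjusted p = 0.040). Groups overlapped for all 3 genes. Without the last run the values were 0.65, 0.32 and 0.19, and none was called. The call of Edem1 was also lost without HDM_CP 49, 67, 97 or 98 or any PBS_CP library but 76 (adjusted p from 0.051 to 0.13). It was lost as well with runs of numbers as a block (adjusted p = 0.061), with only the groups compared (0.080) and by limma on log2(TPM + 1) (0.13) or log2(TPM + 0.1) (0.13). Sel1l and Syvn1, which form the core of the ubiquitin ligase complex, had 0.10 ± 0.04 and −0.08 ± 0.04 there, and the coat protein gene Sec24d had 0.01 ± 0.05. None of these 3 was called in either HDM comparison. The promoter of Sec24d held the XBP1 site TGACGTGG, found in 0.563% of all promoters.

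Of the members, only Edem1 varied along with plasma cell markers past the threshold, and by Pearson r alone. The 11 markers summed to between 494 and 4382 TPM, with the highest library of each group at 3482 TPM in PBS_SAL (library 105), 1753 TPM in PBS_CP, 1111 TPM in HDM_SAL and 4382 TPM in HDM_CP (library 98). The Jchain level of PBS_SAL 105 was 164 CPM and that of HDM_CP 98 was 169 CPM. Of the 11 markers, 0 were called in HDM_SAL against PBS_SAL and 1, Ighg1, in HDM_CP against PBS_CP. Over deviations from the group means in 27 libraries, Edem1 correlated with the mean log2 CPM of these markers (Pearson r = 0.69, permutation adjusted p = 0.017; Spearman rho = 0.59, adjusted p = 0.14; 64 pairs of gene and marker score computed). Without HDM_CP 98 and PBS_SAL 105, r was 0.52. Within PBS_SAL, PBS_CP, HDM_SAL and HDM_CP, r of Edem1 was 0.65, 0.59, 0.62 and 0.78. None of these passed (exact permutation, adjusted p from 0.30 to 0.39 over 48 relations). With each group's 2 farthest libraries left out, r of Edem1 was −0.17, −0.26, 0.41 and 0.42. Derl3 gave r = 0.45 over all libraries (permutation adjusted p = 0.27) and 0.19 without HDM_CP 98 and PBS_SAL 105. Its r was 0.88 within PBS_SAL, 0.47 within PBS_CP, −0.43 within HDM_SAL and 0.36 within HDM_CP. None of these passed (exact permutation, adjusted p from 0.089 to 0.65). Leaving both libraries out of the fit gave 11 called members in HDM_CP against PBS_CP, without Hsp90b1, Pdia6, Herpud1 and Edem1. Calls over all genes went from 1938 to 1243, and PBS_SAL 105 is in neither group compared. Hsp90b1, Pdia6 and Herpud1 had r of −0.09, −0.20 and −0.15 with the plasma cell markers. The calls of Hsp90b1, Herpud1 and Edem1 were also lost without HDM_CP 49. Whether plasma cells account for any of these changes was not tested.

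None of the 6 sensors and transcription factors was called in either HDM comparison. Xbp1 had medians of 170, 166, 166 and 178 CPM in PBS_SAL, PBS_CP, HDM_SAL and HDM_CP, within a full range of 153 to 191 CPM. Its log2 fold change was −0.02 ± 0.05 in the saline pair (95% interval from −0.12 to 0.08) and 0.06 ± 0.05 in the combustion-product pair (−0.04 to 0.15). Atf4 had medians of 149, 155, 150 and 151 CPM within 128 to 183 CPM, and fold changes of 0.03 ± 0.07 and −0.06 ± 0.07. All 4 groups overlapped for both factors, and the intervals of Xbp1 leave out a change beyond 0.15 on the log2 scale in either direction.

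Ddit3, which encodes CHOP, had medians of 19.4, 18.6, 16.7 and 16.7 CPM within 15.5 to 23.2 CPM, at −0.18 ± 0.09 (adjusted p = 0.25) and −0.05 ± 0.08. Among the sensors, Ern1 had medians of 67.0, 67.2, 67.1 and 71.4 CPM within 59.1 to 80.4 CPM, at −0.07 ± 0.07 and 0.03 ± 0.07. Eif2ak3 had 44.0, 43.3, 39.2 and 40.7 CPM within 35.2 to 49.3 CPM, at −0.13 ± 0.07 and 0.01 ± 0.07. The largest of these values was that of Atf6 in HDM_SAL against PBS_SAL, at −0.19 ± 0.08 (adjusted p = 0.15), with medians of 108, 107, 90.9 and 97.4 CPM within 82.9 to 118 CPM. In the saline pair 5 of the 6 fold changes were thus below 0, while 13 of 14 chaperones were above it.

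Of the ATF4 and CHOP targets, Chac1, a glutathione-degrading enzyme, fell in HDM_SAL against PBS_SAL. It ranged from 4.05 to 6.46 CPM in PBS_SAL (median 4.69) and from 3.06 to 4.03 CPM in HDM_SAL (median 3.49). All HDM_SAL libraries lay below all PBS_SAL libraries, though the highest of the former and the lowest of the latter nearly met, and the log2 fold change was −0.51 ± 0.15 (adjusted p = 0.044). The call was lost without any one of HDM_SAL 50, 52, 54, 72 or 99 or PBS_SAL 61, 64, 80, 81 or 104 (adjusted p from 0.051 to 0.12). It was also lost with runs of numbers as a block (adjusted p = 0.086), with no filter on low counts (0.077) and without the last run (0.12). In PBS_CP it ranged from 2.54 to 3.95 CPM (median 3.67), so every PBS_CP library also lay below every PBS_SAL library, at −0.54 ± 0.15, but this did not pass the test over all genes (adjusted p = 0.41). HDM_CP libraries ranged from 1.83 to 4.03 CPM (median 2.95). PBS_SAL was thus the high group, and both comparisons share it. Trib3, a pseudokinase induced by CHOP, had −0.24 ± 0.13 and −0.18 ± 0.13 in the HDM comparisons, and Asns, asparagine synthetase, −0.05 ± 0.09 and −0.11 ± 0.09, none called.

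Both mucus-cell factors rose in HDM_SAL against PBS_SAL. Creb3l1, the OASIS transcription factor of secretory cells, ranged from 13.7 to 19.4 CPM in PBS_SAL (median 16.1) and from 20.9 to 32.7 CPM in HDM_SAL (median 25.8). The groups did not overlap, and the log2 fold change was 0.72 ± 0.12 (adjusted p = 0.00090). In the combustion-product pair it went from 20.0 CPM (15.6 to 21.3) to 30.3 CPM (20.6 to 35.0), at 0.59 ± 0.12 (adjusted p = 0.0019), with HDM_CP 66 alone reaching into the PBS_CP range. Every alternative and every omission of a library kept both calls. Within runs the difference was 0.88, 0.53 and 0.45 in the saline pair and 0.82, 0.31 and 0.64 in the other.

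Ern2 was at 0 in 6 of 7 PBS_SAL libraries, and its 14 estimated counts in that group all came from library 105. A count of 0 allows up to 0.0531 CPM in the shallowest of these libraries if each estimated count is taken as 1 read. Estimated counts exceed the planned read pairs, so the limit set by the reads themselves is higher. In PBS_CP, 3 of 7 libraries were at 0, and library 57 held 62 of the group's 94 estimated counts. In HDM_SAL every library held the transcript, from 0.0418 CPM in library 52 (3 estimated counts) to 4.97 CPM in library 54 (median 2.10), and HDM_CP ranged from 0.246 to 2.45 CPM (median 1.20). HDM_SAL overlapped PBS_SAL only through library 52, and the test called the gene higher (adjusted p = 0.0029). Its fitted log2 fold change of 6.08 ± 1.16 depends on the prior count and is no measure of size. HDM_CP against PBS_CP gave 2.63 ± 0.91 and was not called (adjusted p = 0.077), but was without PBS_CP 57 (adjusted p = 0.012) and, at the threshold, without HDM_CP 66. With all libraries kept, Ern2 was called there with estimated counts divided by 4 and by limma on log2(TPM + 0.1).

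**Figure D3:**
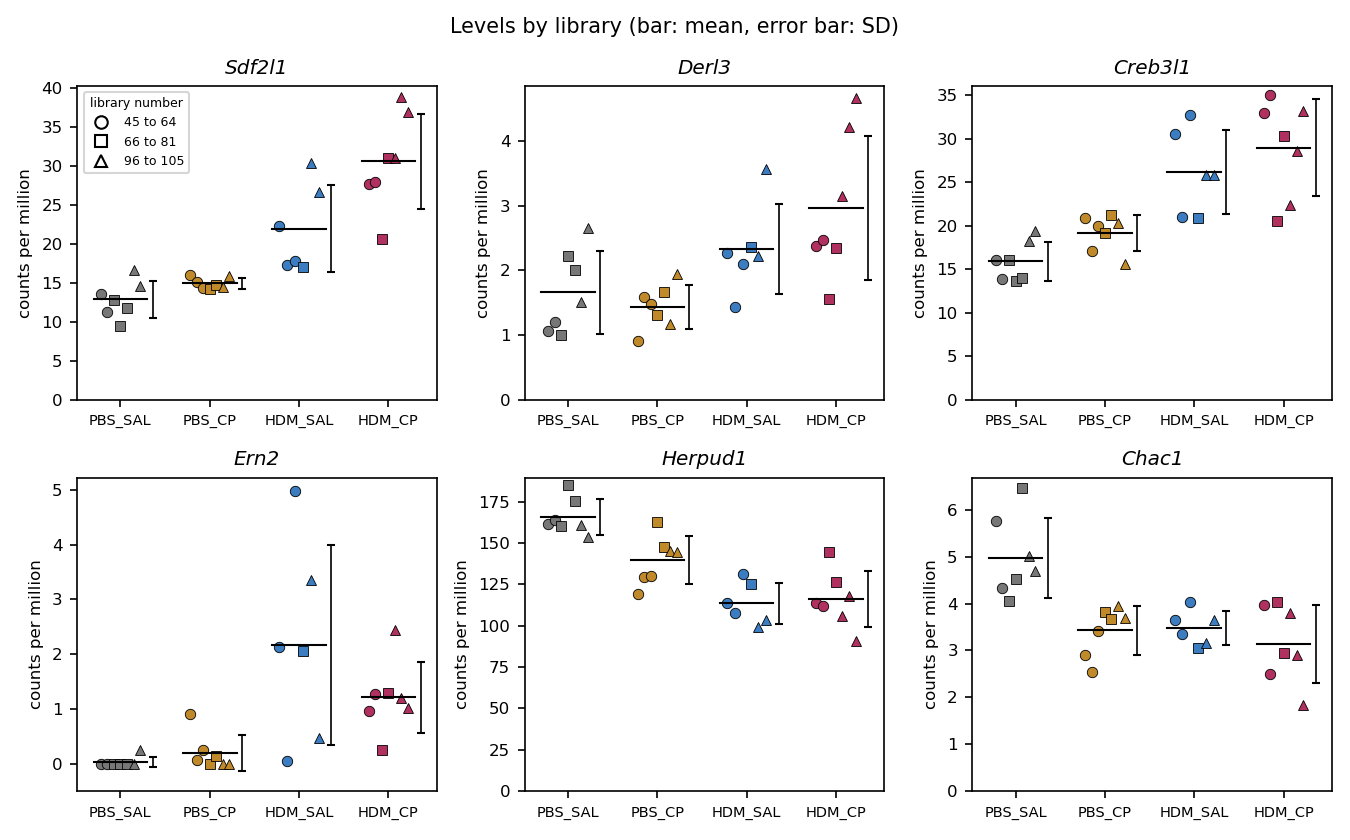
CPM (y axis) of 6 members in each library by group (x axis), with marker shapes for the 3 runs of library numbers, bars at the mean and error bars of 1 SD. HDM libraries lie above PBS libraries for Sdf2l1, PBS_SAL is the high group for Herpud1 and Chac1, and Ern2 is at or near 0 in PBS libraries other than PBS_CP 57.

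Goblet cell markers moved with Ern2. Of the 13 markers, 9 were called higher in each HDM comparison, and their summed level ranged from 16.0 to 75.1 TPM in PBS_SAL, 20.5 to 434 in PBS_CP, 81.8 to 1855 in HDM_SAL and 116 to 1137 in HDM_CP. The mucin gene Muc5ac was lowest among HDM_SAL libraries in 52 (7.09 CPM) and highest in 54 (229 CPM), the same libraries as for Ern2. It was at 42.6 CPM in PBS_CP 57, against a group median of 2.51 CPM. Over deviations from the group means of 27 libraries, Ern2 correlated with the mean log2 CPM of the 13 markers (Pearson r = 0.85, permutation adjusted p = 0.00064, from the smallest p the resampling can give; Spearman rho = 0.74, adjusted p = 0.0038). It was 0.73 without HDM_SAL 52 and PBS_CP 57. Within HDM_SAL r was 0.99 (exact permutation p = 0.0028, adjusted 0.089 over 48 relations), and within HDM_CP it was 0.93 (exact permutation p = 0.0056, adjusted 0.089) but 0.46 without the 2 farthest libraries. Creb3l1 gave r = 0.49 over all libraries (rho = 0.37), which did not pass (permutation adjusted p = 0.17 and 0.46). Sec61b gave r = 0.53 (rho = 0.52) and did not pass either (permutation adjusted p = 0.16 and 0.25). Nor did Sdf2l1, at r = 0.40 (permutation adjusted p = 0.34). Within PBS_SAL, PBS_CP, HDM_SAL and HDM_CP, r was 0.75, −0.03, 0.85 and 0.79 for Sec61b. For Sdf2l1 it was 0.29, 0.73, 0.27 and 0.71. None of these passed (exact permutation, adjusted p from 0.16 to 0.98). Macrophage markers also differed between HDM and PBS groups, and their correlation with the chaperones was not computed. HDM_SAL 72 and HDM_CP 66, lowest for 8 and 9 chaperones, had a mean log2 CPM of these markers of 5.63 and 5.86. HDM_SAL 100, HDM_CP 96 and HDM_CP 97, highest for 10, 7 and 5 chaperones, had 5.42, 5.55 and 6.16. The mean log2 CPM of the goblet cell markers was 3.81 in HDM_SAL 72 and 1.31 in HDM_CP 66. It was 2.81 in HDM_SAL 100, 4.19 in HDM_CP 96 and 3.38 in HDM_CP 97. Of the 6 macrophage markers, 2 were called higher in HDM_SAL against PBS_SAL and 4 in HDM_CP against PBS_CP. The fold change was positive for 4 of the 6 in each comparison. The summed level of all 6 ranged from 271 to 720 TPM in PBS_SAL, 339 to 702 in PBS_CP, 1415 to 3130 in HDM_SAL and 1625 to 5716 in HDM_CP. These sums did not overlap between HDM and PBS libraries, but strongly expressed markers weigh most in them. The mean log2 CPM of the 6 did overlap, with PBS_SAL 105 at 5.43 and HDM_SAL 54 at 5.14. None of the 6 was at 0 in any library. The part of goblet cells or macrophages in the rise of Creb3l1 or of the chaperones was not tested.

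**Figure D4:**
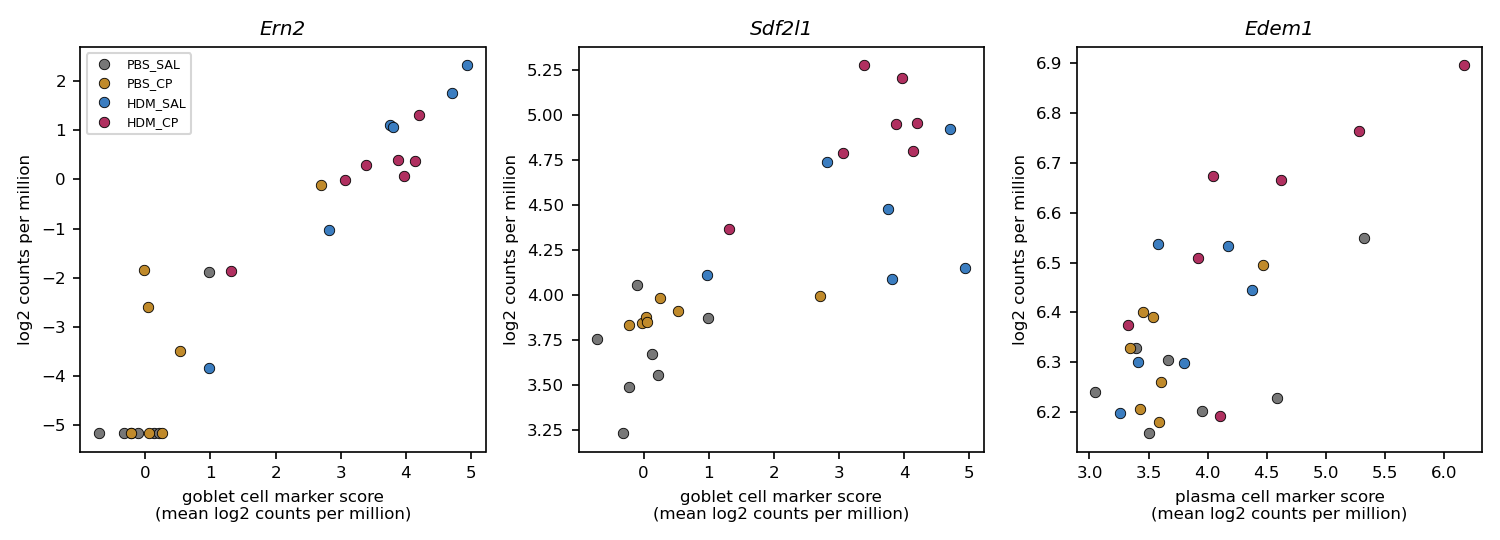
Log2 CPM (y axis) of Ern2 and Sdf2l1 against the goblet cell marker score and of Edem1 against the plasma cell marker score (x axis, mean log2 CPM of the markers), with 1 point per library coloured by group. Ern2 rises along the goblet score within the HDM groups. The Sdf2l1 levels of HDM_CP and HDM_SAL overlap, and the Edem1 panel has HDM_CP 98 at its far right.

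Combustion products changed no member past the threshold. In PBS_CP against PBS_SAL, edgeR called 0 of 32 members (0.00812% of all genes), with 5 at an unadjusted p under 0.05 (1343 of all genes), and in HDM_CP against HDM_SAL 0 of 32 (0.00406% of all genes), with 7 under 0.05 (2388 of all genes). In the HDM pair the calls over all genes went from 1 to 146 without HDM_CP 45, 46 without HDM_CP 96, 17 without HDM_SAL 99 and 14 without HDM_CP 66, and those of members stayed at 0. DESeq2 and limma also called 0 in both. Among the 31 members other than Ern2, 28 in the PBS pair and 29 in the HDM pair had a 95% interval within 0.5 on the log2 scale in either direction. The widest reached −0.84 for Chac1 in the PBS pair and 0.87 for Derl3 in the HDM pair. The value nearest to passing in the HDM pair was that of Sdf2l1, at 0.48 ± 0.14 (adjusted p = 0.21; 20.0 CPM against 31.0 CPM, with overlap), beside 0.22 ± 0.13 in the PBS pair (12.8 against 14.7 CPM). Hspa5 had 0.23 ± 0.08 and 0.13 ± 0.08. Of the 14 chaperones, 13 had a positive fold change in each pair, with medians of 0.14 in the HDM pair and 0.08 in the PBS pair. Over all genes 49.6% and 50.7% were positive. The PBS and HDM pairs use separate libraries, but the 14 genes of a pair share theirs. Chaperone values followed single libraries, so these counts do not stand for 13 separate results. Within HDM mice the difference of Sdf2l1 was 0.55, 0.57 and 0.32 in the 3 runs.

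The interaction of HDM and combustion products, which asks whether the effect of one depended on the other, called 0 of 32 members and 0 of all genes by edgeR. At an unadjusted p under 0.05 stood 2 members, Ern2 (−3.45 ± 1.48) and Herpud1 (0.28 ± 0.12), both with an adjusted p of 0.78, and 1571 of all genes. The value of Ern2 depends on the prior count, ran from −8.58 to −0.42 over the alternatives and is no measure of size. DESeq2 called 6 genes, none of them a member. The interaction of Sdf2l1 was 0.26 ± 0.19 (95% interval from −0.13 to 0.66) and that of Derl3 0.56 ± 0.35 (−0.16 to 1.28). The 9 members called in the combustion-product pair alone are therefore not shown to differ between the pairs.

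The other genes of these pathways follow by their counts. Among 28 other ER folding and quality control genes, with a median of 0.01 in HDM_SAL against PBS_SAL, 1 rose and 1 fell (7.14% called, against 5.44% of all genes). The one that rose was Derl2 (0.15 ± 0.04), and Dnajc10 had −0.12 ± 0.04 without passing. In HDM_CP against PBS_CP, 2 rose (7.14%, against 7.87% of all genes), Erp29 (0.28 ± 0.07) and the oligosaccharyltransferase subunit gene Ostc (0.22 ± 0.06). Of 28 other secretory transport genes, the signal peptidase gene Sec11c (0.24 ± 0.07) and the cargo receptor gene Tmed3 (0.24 ± 0.07) rose in the saline pair (7.14%), and Tmed2 had 0.16 ± 0.05 without passing. These shares of the folding list in both pairs and of the transport list in the saline pair are near those of all genes. In the combustion-product pair 6 of the 28 rose (21.4%), with Sec11c at 0.24 ± 0.07 and Tmed3 at 0.31 ± 0.07, and none fell. The 4 other genes of the OASIS family were not called in either pair. Creb3l4, with the smallest p of these, had 0.47 ± 0.15 in the saline pair (adjusted p = 0.060), and Creb3l3 and Creb3 had 2.90 ± 1.15 and −0.07 ± 0.05.

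Of 28 other ATF4 targets measured, 14.3% were called in the saline pair and 17.9% in the combustion-product pair, against 5.44% and 7.87% of all genes. These shares rest on the few genes named next. In the saline pair 3 rose: the stress protein gene Nupr1 (0.49 ± 0.10), the proline synthesis gene Aldh18a1 (0.35 ± 0.08) and the mitochondrial folate enzyme gene Mthfd2 (0.46 ± 0.14). Ppp1r15a, which encodes the phosphatase subunit that ends the PERK signal, fell by 0.39 on the log2 scale (SE 0.11). In the combustion-product pair 5 rose and none fell: Mthfd2 (0.73 ± 0.13), Aldh18a1 (0.37 ± 0.08), the serine synthesis gene Psat1 (0.39 ± 0.12), the amino acid transporter gene Slc7a5 (0.44 ± 0.13) and the transcription factor gene Cebpb (0.50 ± 0.15). These lie beside values near 0 for Atf4 and Asns. Mthfd2 went from 5.11 to 7.77 CPM in PBS_CP (median 6.64) to 8.62 to 13.6 CPM in HDM_CP (median 9.65), without overlap. Of 11 cytosolic heat shock genes, 18.2% were called in each pair, against 5.44% and 7.87% of all genes, and few genes make up this share. Hsp90aa1 (0.52 ± 0.12) and Hspe1 (0.30 ± 0.09) rose in the saline pair, while Hsph1 had 0.39 ± 0.16 without passing. In the combustion-product pair Hspe1 rose (0.31 ± 0.08) and the co-chaperone gene Bag3 fell by 0.17 on the log2 scale (SE 0.04).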

How the data were processed

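PolyA-selected RNA of 27 whole lungs was sequenced, for which the labels plan 20 M pairs of 150-base reads. The submitters' processing notes name the GRCm39 build, StringTie 2 and STAR (no version). The deposited estimated counts are whole numbers, in sum at least 2.82 times the planned pairs in every library, so counting error is larger than they imply. The authors scaled the deposited TPM to a common total. Strand use in counting is not stated, so antisense overlap cannot be told apart.

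Estimated counts (rounded) were fitted in R 4.3.3 with edgeR 4.0.16: filterByExpr with a minimum count of 10 (24629 genes), TMM, 4 group means over all 27 libraries, quasi-likelihood F tests, two-sided, Benjamini-Hochberg over all genes, threshold 0.05. The procedure was tested on simulated data. Rows without a symbol, 310 of them, held 0.0602% of counts. Members and lists were chosen with earlier results of these data known. Named were all members, and of other lists the 3 genes of smallest p in HDM_SAL against PBS_SAL and all called where 5 or fewer. As an exception, 1 called gene of the other ER folding list is counted but not reported here. Correlations used 100000 permutations within groups. Alternatives were other scaling and filters, DESeq2 1.42.0, limma 3.58.1 on log2(TPM + 1) and log2(TPM + 0.1), counts divided by 4, only the groups compared, runs of numbers as a block and each library left out. Leaving out the last run, or HDM_CP 98 with PBS_SAL 105, was chosen after seeing the data. Motifs were searched in RefSeq promoters (GRCm38.p6), since no genome of the files' build was used.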

Additional observations from a re-analysis of the deposited data

Results flagged for a closer look

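Within 9 of 128 sets of a member's values in a group, 1 library stood apart from the others by Dixon's criterion, which chance alone meets in about 1 of 20 groups. PBS_SAL 105 did so for 4 members: Xbp1 at 188 CPM (next library 172 CPM), Edem1 at 93.6 CPM (next 80.4 CPM), Dnajc3, lower than the rest, at 192 CPM (next 215 CPM), and Ern2 at 0.243 CPM with all others at 0. That library also had the highest Jchain level of its group (164 CPM). Xbp1 stood apart in HDM_SAL 100 at 180 CPM, the library that was highest in its group for 10 of 14 chaperones. Ern2 stood apart in PBS_CP 57 at 0.899 CPM, where Muc5ac was 42.6 CPM. The others were Sel1l in HDM_CP 45 (179 CPM, lowest), Syvn1 in PBS_CP 76 (69.6 CPM, highest) and Sec61b in PBS_SAL 61 (29.4 CPM, lowest). No explanation of these values was tested.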

How the results depend on the processing

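In HDM_SAL against PBS_SAL, the 8 called members became 5 with limma on log2(TPM + 1) without a filter and 4 without the last run of library numbers, and ranged from 4 to 13 when single libraries were left out; the other alternatives gave 6 to 11. In HDM_CP against PBS_CP, the 15 became 3 without the last run, ranged from 11 to 16 with single libraries left out, and were 10 to 16 otherwise. In both, fewer libraries also entered the fit. Both combustion-product comparisons and the interaction called 0 members under every alternative run, where DESeq2 called 32, 192 and 6 genes in all, against 2, 1 and 0. In HDM_SAL against PBS_SAL, limma on log2(TPM + 1) called 521 of 1370 genes higher, against 786 of 1339, and among members it called 4 higher and 2 lower. No called member changed sign under any alternative. With runs of numbers as a block, 9 and 14 members were called in the HDM comparisons: Chac1 was lost and Calr and Creld2 gained in the first, and Edem1 was lost in the second. No paired analysis was possible because the library numbers are not shared between groups. Depth limits Ern2 most, which was at 0 in 9 PBS libraries.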
